A study of Mus musculus with 15 samples.

Results

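The interferon-stimulated genes described here are 44 transcripts that cells are known to make more of after exposure to an interferon, and they were looked up by symbol among the 17594 genes of the deposited table. All 44 were present, and all 44 passed the filter on low values and entered the tests. RNA sequencing measured them in 15 libraries of sorted splenic CD4 T cells from C57BL/6 mice. Treg are regulatory T cells, which carry the transcription factor Foxp3, and Tconv are conventional CD4 T cells. The KO animals carried a conditional allele of Hpgd, which encodes the enzyme that begins the breakdown of prostaglandin E2, and Foxp3-Cre-YFP, which expresses the Cre recombinase from the Foxp3 locus and so limits deletion to Foxp3-expressing cells. Tconv of these animals therefore carry the alleles without being the cells in which Cre is expected to act. The WT animals are labelled as wild-type controls, and the labels do not say whether they carried the Cre driver. Treg were sequenced in 4 WT and 4 KO libraries and Tconv in 3 WT and 4 KO libraries, and the labels give neither age nor the number of animals behind a library.

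Type I interferons signal through the receptor chains Ifnar1 and Ifnar2, the kinases Jak1 and Tyk2, and a complex that includes Stat2 and Irf9 and binds the interferon-stimulated response element (ISRE). Interferon gamma signals through Ifngr1 and Ifngr2 and the kinases Jak1 and Jak2, and acts on genes at the gamma-activated site (GAS). Many of the induced genes encode proteins that recognise or block viral RNA and DNA, while the guanylate-binding proteins (GBP) and immunity-related GTPases (IRG) act on the membranes around intracellular pathogens. Resting lymphocytes keep a basal level of many of these transcripts.

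Libraries held between 2.64 and 11.1 mega-reads (M reads) assigned to genes, with a mean of 8.35 ± 1.48 M reads (SD) for Treg WT, 3.89 ± 0.896 for Treg KO, 8.77 ± 2.26 for Tconv WT and 5.40 ± 3.41 for Tconv KO. Hpgd had 1 read in the Treg WT group and 0 in each of the others, so its loss could not be seen in these data. All WT libraries carried the Y-linked transcript Ddx3y and all KO libraries the female transcript Xist, and the label numbers run from 483 to 490 in WT and from 574 to 581 in KO, so genotype, sex and any handling tied to these numbers cannot be told apart. Foxp3 lay between 3314 and 4800 in Treg and between 14.4 and 69.5 in Tconv. The summed level of 7 B cell markers ran from 77.4 to 109 in Treg WT, 128 to 187 in Treg KO, but 9.49 to 12.4 in WT and 11.4 to 24.5 in KO of the Tconv libraries; Cd79b alone gave 72.1 to 166 in Treg, while Ms4a1 stayed between 0 and 6.69 and Pax5 between 0 and 1.97 over the libraries. A list of 6 CD8 T and NK cell markers summed to 61.4 to 74.5 in Treg WT, 59.4 to 107 in Treg KO, 107 to 159 in WT and 80.4 to 197 in KO of the Tconv libraries. Klrb1c was 15.1-fold higher in Tconv than in Treg of WT animals (limma adjusted p = 0.0014) and 9.43-fold higher in KO (0.00094), and Gzma was 8.14-fold higher in Tconv of KO animals (0.0037). The 7 myeloid markers summed to 4.65 to 27.5, 2.43 to 13.4, 22.7 to 28.99 and 17.7 to 31.9 in the same order of groups, with Itgam 6.28-fold higher in Tconv of WT animals (adjusted p = 0.0022). The other myeloid markers were below the filter on low values. In WT, Csf1r averaged 5.92 in Treg, with 18.6 in replicate 4, and 0.653 in Tconv, and Lyz2 averaged 1.42 and 1.09. Cd14, S100a9 and Itgax averaged at most 0.443 in Treg WT and between 0.634 and 1.18 in Tconv WT, and S100a8 was 0 in both. The 6 plasmacytoid dendritic cell markers summed to 278 to 371, 299.6 to 625, 225 to 271 and 197 to 538. Most of this sum was Runx2, at 215 to 577 in Treg and 118 to 447 in Tconv and without overlap in WT; Ccr9 was 1.99-fold higher in Tconv of WT animals, Ly6d read 1.38 to 9.59 in Treg WT against 0 to 0.687 in Tconv WT, and Siglech and Klk1 lay at or below 0.887 throughout. The 6 erythroid and platelet markers summed to 21.2 to 29.3, 8.62 to 17.4, 21.7 to 30.9 and 14.8 to 26.1. Tconv KO replicate 1 stood apart from the other Tconv libraries in Ikzf2, a Treg gene, at 3195 against 366 to 1215, and the count of members that differ between the KO cell types is also given without it.

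Promoters are where the ISRE and GAS act, and 9 member promoters that hold such a match are shown because they belong to the GTPases, to the OAS family and to Isg15 and Ifit1, well-known targets of interferon. Each line gives the 120 bases upstream of a RefSeq transcription start on GRCm38.p6, in the direction of transcription, with capitals marking a match to the ISRE core (TTTC, 2 bases of any kind, TTTC) or the GAS core TTCNNNGAA, where N is any base, on either strand.
Gbp2 (chr3:142620543-142620662, + strand): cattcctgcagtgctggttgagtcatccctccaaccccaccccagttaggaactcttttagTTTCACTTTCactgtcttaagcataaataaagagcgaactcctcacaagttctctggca
Gbp3 (chr3:142559924-142560043, + strand): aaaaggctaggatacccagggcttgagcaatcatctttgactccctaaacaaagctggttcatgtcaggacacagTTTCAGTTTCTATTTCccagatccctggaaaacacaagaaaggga
Gbp7 (chr3:142530216-142530335, + strand): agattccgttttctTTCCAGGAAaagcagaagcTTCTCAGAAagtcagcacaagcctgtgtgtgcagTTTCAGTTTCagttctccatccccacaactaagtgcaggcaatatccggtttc
Igtp (chr11:58199436-58199555, + strand): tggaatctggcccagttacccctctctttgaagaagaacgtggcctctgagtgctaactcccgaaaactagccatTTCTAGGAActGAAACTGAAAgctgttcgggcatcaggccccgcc
Irgm2 (chr11:58214857-58214976, + strand): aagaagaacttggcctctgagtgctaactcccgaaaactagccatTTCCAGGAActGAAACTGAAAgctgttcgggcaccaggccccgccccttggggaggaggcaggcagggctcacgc
Oas1a (chr5:120907526-120907645, - strand): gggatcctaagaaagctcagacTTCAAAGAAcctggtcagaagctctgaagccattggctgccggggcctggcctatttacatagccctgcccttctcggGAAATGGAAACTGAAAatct
Oas3 (chr5:120777660-120777779, - strand): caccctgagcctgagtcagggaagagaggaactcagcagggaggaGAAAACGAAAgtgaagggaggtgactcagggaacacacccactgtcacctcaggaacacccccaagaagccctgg
Isg15 (chr4:156200819-156200938, - strand): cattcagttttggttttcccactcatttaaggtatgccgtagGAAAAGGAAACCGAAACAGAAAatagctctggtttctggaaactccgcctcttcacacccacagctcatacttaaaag
Ifit1 (chr19:34640769-34640888, + strand): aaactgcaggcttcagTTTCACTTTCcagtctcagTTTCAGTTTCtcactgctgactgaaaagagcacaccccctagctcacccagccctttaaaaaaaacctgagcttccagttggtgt
Gbp2, Gbp3 and Gbp7 encode guanylate-binding proteins, Igtp and Irgm2 encode IRG proteins, Oas1a and Oas3 belong to the family of 2'-5' oligoadenylate synthetases, Isg15 encodes a ubiquitin-like modifier, and Ifit1 encodes a protein that binds foreign RNA ends. In Gbp2 the ISRE core spans the bases 59 to 50 upstream of the start, and in Isg15 overlapping matches run from 78 to 57. Igtp and Irgm2 hold both motifs in the same order, a GAS core at 45 to 37 followed by an ISRE core at 34 to 25 in Igtp, and at 75 to 67 followed by 64 to 55 in Irgm2.

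The RefSeq table held promoters for 32 of the 44 members. Within the 250 bases upstream of a start, 14 of these 32 genes (43.8%) had an ISRE core, against 299 of 9096 tested genes with a promoter (3.29%). A GAS core was present in 9 of the 32 (28.1%), against 7.39% of tested genes. Counted by promoter, the shares were 35.9% of 39 member promoters and 2.98% of all promoters for the ISRE core, and 23.1% and 7.02% for the GAS core. Among the GTPases 6 of 7 genes with a promoter held the ISRE core, the exception being Ifi47. No ISRE core stood in this window in Irf1, Irf7, Irf9, Ifih1 or Ddx58. A match describes letters in the sequence and does not show binding.

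Levels of single genes are normalized read counts, that is gene counts divided by 1 scaling factor per library, and levels between genes are compared per kb of transcript. Per kb, Samhd1, which encodes a hydrolase of deoxynucleotides that limits retroviruses, was the most abundant member in Treg WT at 2139 ± 201 (SD, n = 4). Ifi27l2a, a short interferon-induced transcript, followed with 1881 ± 304 and was the most abundant member in Tconv WT with 1372 ± 57.5 (n = 3). Irf1, a transcription factor of both interferon pathways, had 1156 ± 52.8 per kb in Treg WT and 1074 ± 54.7 in Tconv WT. The lowest per kb were Rsad2, which encodes the antiviral enzyme viperin, at 8.59 ± 1.95 in Treg WT, and Mx2, a dynamin-like GTPase, at 8.72 ± 3.33 in Tconv WT. From the highest to the lowest member, the level per kb spanned a ratio of 249 in Treg WT versus 157 in Tconv WT. The antiviral genes Mx1, Mx2, Rsad2, Cmpk2, Oasl1 and Oasl2 held ranks between 38 and 44 of 44 in every group.

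Treg and Tconv of the WT animals were compared first. The GBP and IRG genes were the group with most differences: 6 of 8 were higher in Treg and 0 lower, with a median log2 fold change of 0.70, against -0.02 over all 11314 genes tested. Gbp3, Iigp1, Gbp7, Gbp2, Irgm2 and Igtp rose, in that order of size. Outside this group Samhd1, Eif2ak2 and Oas1a were higher in Treg, and Oas2 and Ddx58 were lower. In all, 11 of 44 members passed at a Benjamini-Hochberg adjusted p under 0.05 in limma (25.0%), beside 18.1% of all genes tested. The 9 higher members were 20.5% of the list, beside 10.0% of all genes, and the 2 lower were 4.55%, beside 8.06%. In the KO animals 15 of 44 passed (34.1%, beside 31.4% of all genes), 12 higher (27.3%, beside 15.8%) and 3 lower (6.82%, beside 15.6%). The members' medians were 0.10 in WT and 0.11 in KO. The libraries of the cell types did not overlap for 23 members in WT, beside 41.1% of all genes, and for 11 in KO, beside 24.1%. Bulk RNA cannot separate fewer expressing cells from less RNA per cell.

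**Figure D1:**
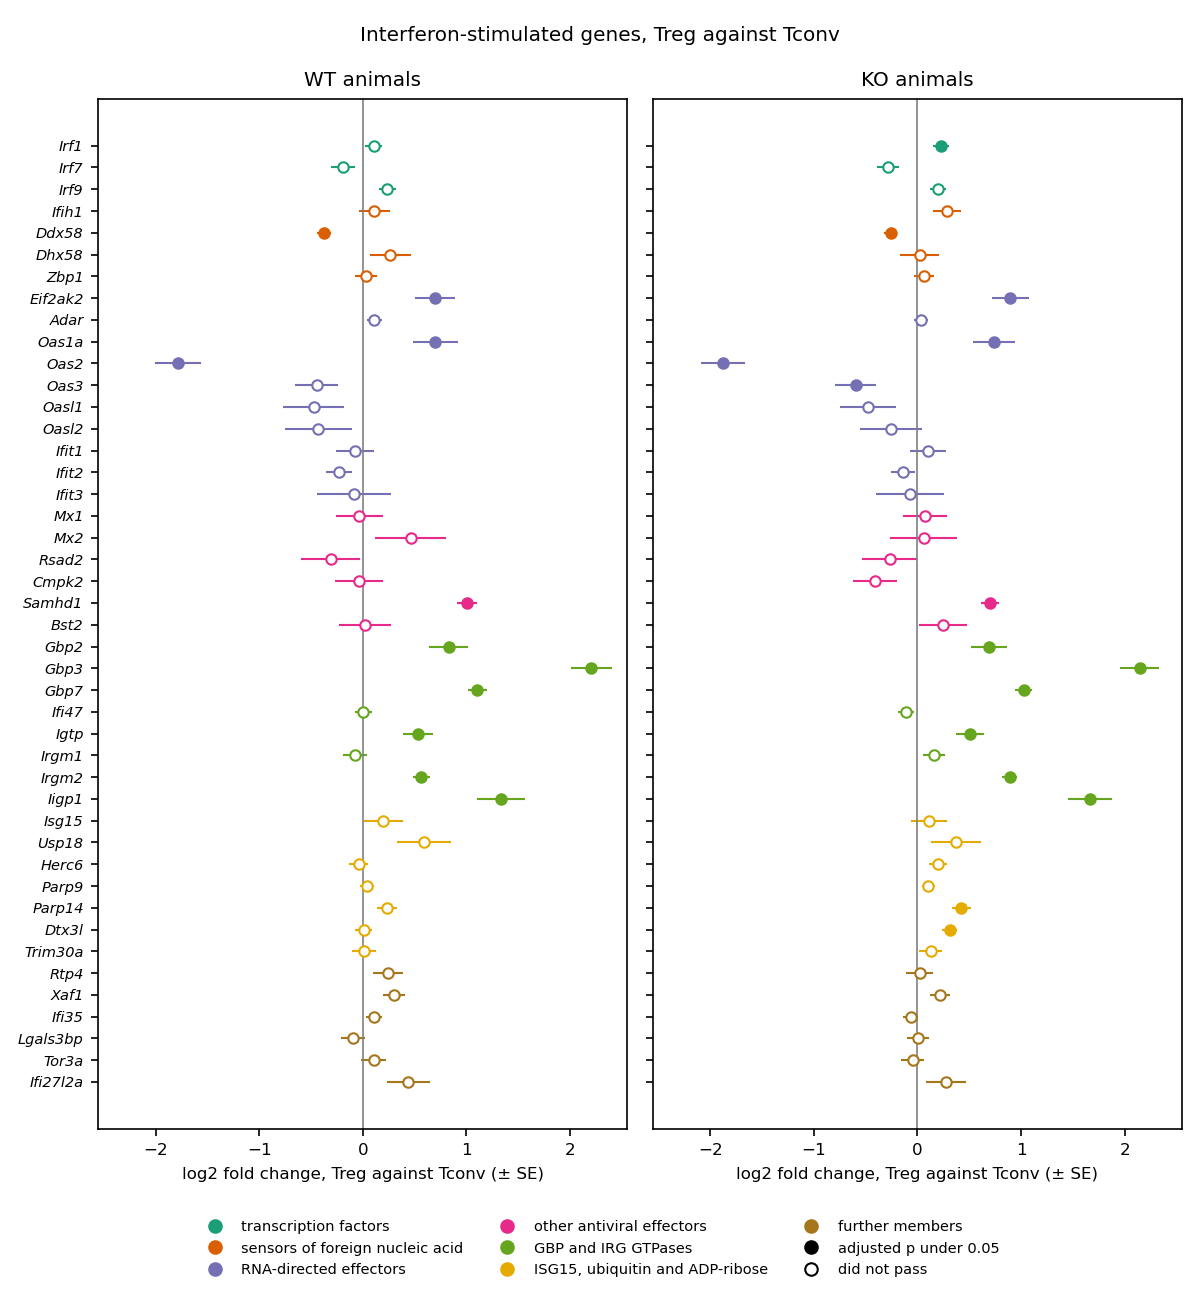
Log2 fold change ± SE of each of the 44 members in Treg against Tconv, in WT animals (left) and KO animals (right), ordered and coloured by functional group; filled points passed at an adjusted p under 0.05. Of the 8 GBP and IRG genes, 6 are filled and lie to the right of 0 in both panels, and Oas2 lies far to the left in both.

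Gbp3 (GRCm38, chr3:142560026-142573209) lies in a cluster of guanylate-binding protein genes with Gbp7 (chr3:142530342-142550149) and Gbp2 (chr3:142620602-142638008), whose products coat pathogen vacuoles. Gbp3 read 1210.2, 1048, 1313 and 901 in the Treg WT libraries and 246, 218 and 256 in Tconv WT. It read 1005, 1168, 1400.4 and 924 in Treg KO versus 327, 322, 199 and 187 in Tconv KO. Every Treg library thus lay above every Tconv library, with no overlap in either genotype. The mean was 4.66-fold higher in Treg of WT animals (log2 fold change 2.20 ± 0.20 SE, limma adjusted p = 1.3e-06) and 4.34-fold higher in KO animals (2.14 ± 0.18, adjusted p = 7.1e-07). These were the largest rises among the 44 members in both genotypes.

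Gbp7 read 2629, 2521, 2983 and 2207 in Treg WT versus 1265, 1152 and 1169 in Tconv WT, again without overlap. In the KO animals it read 2494, 2675, 2794 and 2494 in Treg and 1395, 1309, 1228 and 1204 in Tconv. The rise was 2.16-fold in WT (log2 fold change 1.11 ± 0.09, adjusted p = 4.8e-07) and 2.04-fold in KO (1.03 ± 0.08, adjusted p = 3.9e-07). Gbp2 read 1408, 1146, 1898 and 956 in Treg WT versus 735, 649 and 836 in Tconv WT. Treg WT replicate 3 was high and replicate 4 low, and no Treg library overlapped Tconv. Its rise was 0.83 ± 0.19 in WT (adjusted p = 0.0049) and 0.69 ± 0.17 in KO (adjusted p = 0.0064), on the log2 scale.

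The IRG genes code for GTPases that attack or guard vacuole membranes, and Irgm1 and Irgm2 are among the regulators of the family. Iigp1 read 1729, 1682, 1826 and 1384 in Treg WT versus 713, 614 and 635 in Tconv WT. It read 1903, 2084, 2383 and 1303 in Treg KO versus 683, 794, 631 and 354 in Tconv KO, and the cell types did not overlap in either genotype. The mean of Iigp1 was 2.53-fold higher in Treg of WT animals (log2 fold change 1.33 ± 0.23, adjusted p = 0.00061) and 3.12-fold higher in KO (1.66 ± 0.21, adjusted p = 2.9e-05). Irgm2 (chr11:58199618-58222782) averaged 1422 ± 121 in Treg WT versus 959.9 ± 63.7 in Tconv WT, and 1369.7 ± 66.4 and 739 ± 53.2 in the KO groups. It rose by 0.56 ± 0.08 in WT (adjusted p = 0.00013) and 0.89 ± 0.07 in KO (adjusted p = 5.5e-07). Igtp (chr11:58199556-58207591) averaged 2718 ± 415 against 1867 ± 229 in WT and 2144 ± 244 against 1521 ± 265 in KO. Its rise was 0.54 ± 0.14 (adjusted p = 0.016) and 0.50 ± 0.13 (adjusted p = 0.0097). In WT the Igtp call was lost without Treg WT replicate 1 (adjusted p = 0.053), Tconv WT replicate 2 (0.089) or Tconv WT replicate 3 (0.056). The GENCODE models of Irgm2 and Igtp overlap on the same strand, while the RefSeq start of Irgm2 used above lies past the end of Igtp. The annotation used for counting is not stated, so their reads may have been split between them. Members of the GBP, IRG, OAS and IFIT families resemble each other enough that the counting could misassign reads.

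The 2 IRG members that did not pass in either genotype were Irgm1 and Ifi47. Irgm1 averaged 1031 ± 149 in Treg WT versus 1077 ± 59.5 in Tconv WT (log2 fold change -0.07 ± 0.12, adjusted p = 0.74). Ifi47, whose product is another IRG protein, averaged 1894 ± 151 and 1889 ± 195 (0.01 ± 0.08, adjusted p = 0.98). Their group means differed by less than the spread between libraries in WT. In the KO animals the differences were 0.16 ± 0.11 for Irgm1 (adjusted p = 0.27) and -0.11 ± 0.08 for Ifi47 (adjusted p = 0.28). Summed B cell markers moved with the cell type as given above, and their part in the GTPase differences was not tested.

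**Figure D2:**
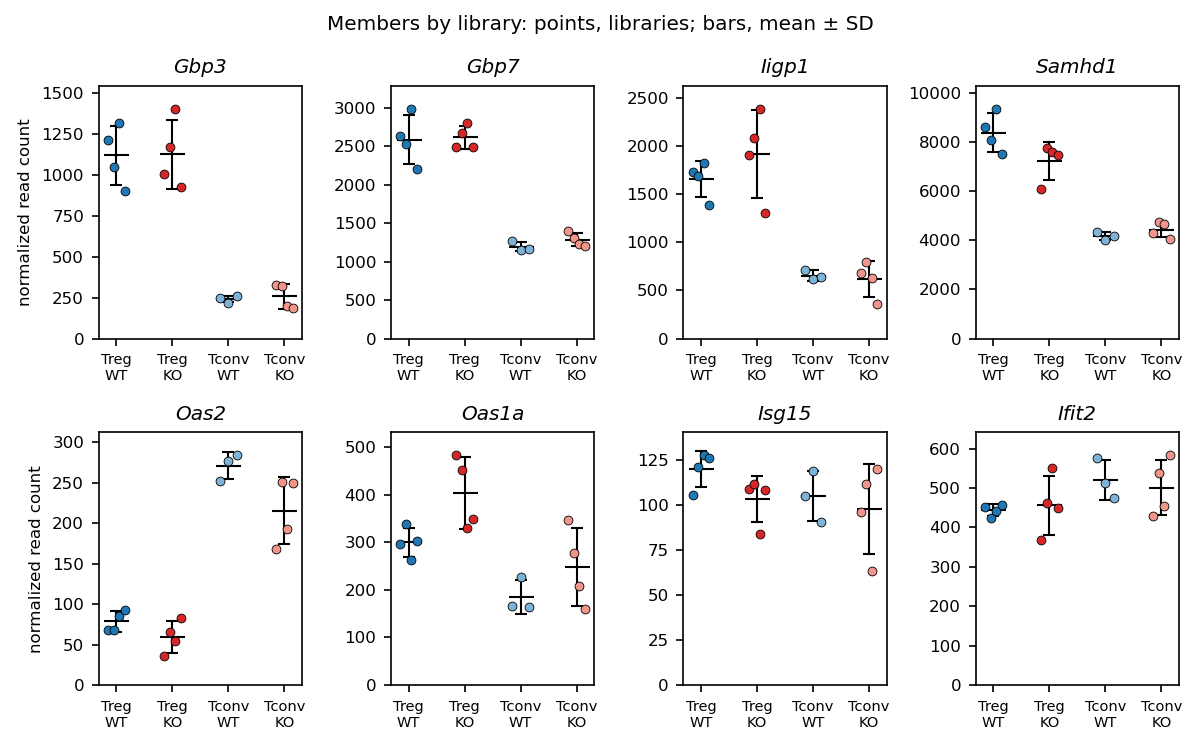
Normalized read counts (linear axes from 0) of 8 members in every library, with the group mean ± SD (4 libraries a group, 3 in Tconv WT). Gbp3, Gbp7, Iigp1 and Samhd1 are higher in all Treg than in all Tconv libraries, Oas2 is lower, and Isg15 overlaps between the cell types. Ifit2 overlaps in KO, while in WT its Treg libraries (424 to 457) lie below its Tconv libraries (475 to 576).

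Samhd1 was the most abundant member that differed. It read 8629, 8097, 9364 and 7506 in Treg WT versus 4338, 4036 and 4165 in Tconv WT. In the KO animals it read 6081, 7783, 7609.8 and 7493 in Treg and 4288, 4743, 4657 and 4070.0 in Tconv. All Treg libraries lay above all Tconv libraries, and the lowest of them was Treg KO replicate 1. Samhd1 was 2.01-fold higher in Treg of WT animals (log2 fold change 1.003 ± 0.098, adjusted p = 3e-06) and 1.63-fold higher in KO animals (0.70 ± 0.09, adjusted p = 3.3e-05).

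The oligoadenylate synthetases make the second messenger that activates RNase L. They differed between the cell types in opposite directions. Oas2 (chr5:120730333-120749853) read 67.8, 68.3, 84.9 and 93.1 in Treg WT versus 252, 277 and 284 in Tconv WT. It read 36.3, 65.5, 53.9 and 82.9 in Treg KO versus 168, 251, 193 and 250.1 in Tconv KO, so that every Treg library lay below every Tconv library. Of the CD8 T and NK cell markers, Klrb1c was also higher in Tconv of both genotypes as given above, and Gzma in KO alone. Cd8b1 did not pass, and Cd8a, Ncr1 and Klra8 were too low to be tested. Any part of such cells in Oas2 was not tested. The mean of Oas2 was 3.45-fold higher in Tconv of WT animals (log2 fold change of Treg against Tconv -1.79 ± 0.22, adjusted p = 4.1e-05) and 3.61-fold higher in Tconv of KO animals (-1.88 ± 0.21, adjusted p = 8.3e-06). Oas1a (chr5:120896256-120907521) was higher in Treg. It read 297, 338, 263 and 303 in Treg WT against 167, 227 and 164 in Tconv WT, which did not overlap, and 483, 452, 329.6 and 350.4 in Treg KO against 348, 277, 209 and 159 in Tconv KO, which overlapped through Tconv KO replicate 1. The rise was 0.70 ± 0.22 in WT (adjusted p = 0.035) and 0.74 ± 0.20 in KO (adjusted p = 0.011). The WT call was lost without Treg WT replicate 1 (adjusted p = 0.066), 2 (0.093) or 4 (0.072), without Tconv WT replicate 1 (0.13) or 3 (0.13), and at equal depth (0.081). The KO call was lost in a fit of the groups compared alone (0.055).

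Oas3 (chr5:120753098-120777661) averaged 285 ± 36.1 in Treg WT versus 388 ± 33.2 in Tconv WT (log2 fold change -0.45 ± 0.21, adjusted p = 0.17). In KO animals it averaged 285 ± 67.8 in Treg and 434 ± 123 in Tconv and passed as lower in Treg (-0.60 ± 0.20, adjusted p = 0.03), although the libraries overlapped. That call was lost without Treg KO replicate 3 (adjusted p = 0.087), Tconv KO replicate 1 (0.079) or Tconv KO replicate 2 (0.094), at equal depth (0.06) and in a fit of the KO groups alone (0.11). Oasl1 and Oasl2, which encode relatives with ubiquitin-like domains, had log2 fold changes of -0.48 ± 0.29 and -0.43 ± 0.32 in WT and did not pass (adjusted p = 0.31 and 0.42). Oas1a was thus the single OAS gene of the list that was higher in Treg, while Oas2 was lower in all alternatives run.

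Eif2ak2, which encodes the RNA-activated kinase PKR that halts translation, read 317, 417, 380.4 and 403 in Treg WT versus 233, 258 and 208 in Tconv WT, with no overlap. It read 612, 320.2, 633 and 485 in Treg KO versus 323, 227, 260.2 and 261 in Tconv KO, where Treg KO replicate 2 and Tconv KO replicate 1 overlapped. The rise was 0.70 ± 0.19 in WT (adjusted p = 0.018) and 0.90 ± 0.18 in KO (adjusted p = 0.0013). In WT it was lost without Treg WT replicate 2 (adjusted p = 0.053), Tconv WT replicate 1 (0.058) or Tconv WT replicate 3 (0.085). Adar, which encodes an RNA-editing enzyme, averaged 1909 ± 61.5 and 1767 ± 71.0 in WT (0.11 ± 0.08, adjusted p = 0.37).

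Ifit1, Ifit2, Ifit3, Isg15, Mx1, Mx2, Rsad2, Bst2 and Usp18 did not pass between the cell types in either genotype. Ifit1, Ifit2 and Ifit3, which encode proteins that bind foreign RNA, had WT log2 fold changes of -0.07 ± 0.19, -0.23 ± 0.12 and -0.08 ± 0.36, with adjusted p-values of 0.85, 0.25 and 0.92. Isg15 read 106, 121, 127 and 126 in Treg WT versus 105, 119 and 90.7 in Tconv WT, and these ranges overlapped (0.20 ± 0.19, adjusted p = 0.54). Mx1, a relative of Mx2, averaged 78.3 ± 17.1 and 80.2 ± 17.4 (-0.04 ± 0.23, adjusted p = 0.95). Rsad2 averaged 36.0 ± 8.16 and 45.4 ± 13.6 (-0.31 ± 0.29, adjusted p = 0.53), Bst2, which tethers budding virus, 328 ± 3.86 and 324 ± 37.7 (0.02 ± 0.25, adjusted p = 0.97), and Usp18, which removes ISG15 from proteins and dampens the receptor, 291 ± 36.7 and 192 ± 17.3 (0.59 ± 0.26, adjusted p = 0.14). The standard errors of the scarcer genes are wide, and for Mx2 the difference was 0.46 ± 0.35. In a fit of the WT groups alone, without the KO libraries, 15 of 44 members were higher and 7 lower in Treg. Over all 11314 genes tested, that fit called 2064 higher and 1926 lower, beside 1134 and 912 with all 15 libraries. Among the members, Usp18, Ifi27l2a, Irf9, Parp14, Xaf1 and Dhx58 joined the higher, and Oas3, Oasl1, Oasl2, Ifit2 and Irf7 the lower.

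Among the sensors of foreign nucleic acid, Ddx58, which encodes the RNA sensor RIG-I, was the one that differed. Ddx58 (chr4:40203773-40239828) read 846, 840.1, 929 and 898 in Treg WT versus 1204, 1117 and 1096 in Tconv WT. It read 1130.1, 1089, 1038 and 1012 in Treg KO versus 1255, 1395, 1240.0 and 1213 in Tconv KO. Treg lay below Tconv without overlap within each genotype, by -0.38 ± 0.07 in WT (adjusted p = 0.00098) and -0.26 ± 0.06 in KO (adjusted p = 0.0061) on the log2 scale. Ifih1, which encodes the sister sensor MDA5, Dhx58, which encodes their regulator LGP2, and Zbp1, a sensor of Z-form nucleic acid, had WT log2 fold changes of 0.11 ± 0.15, 0.27 ± 0.20 and 0.03 ± 0.10 and did not pass.

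In the KO animals 3 further members passed as higher in Treg. Parp14, which encodes an ADP-ribosyltransferase, averaged 2898 ± 225 in Treg KO versus 2169 ± 306 in Tconv KO, without overlap (0.43 ± 0.09, adjusted p = 0.002). Dtx3l, a ubiquitin ligase that works with Parp9, averaged 1674 ± 84.7 and 1354 ± 143 (0.31 ± 0.08, adjusted p = 0.0054); its model overlaps Parp9 on the opposite strand, and the strand setting of the counting is not stated. Irf1 averaged 2443 ± 251 and 2076 ± 141 (0.23 ± 0.08, adjusted p = 0.03), with overlap, and lost its call without Treg KO replicate 1 (adjusted p = 0.095) or 2 (0.068), without Tconv KO replicate 2 (0.053), 3 (0.081) or 4 (0.082), and in a fit of the KO groups alone (0.11). Without Tconv KO replicate 1, the library high in Ikzf2, 14 of 44 members were higher and 2 lower in Treg KO. Over all 11275 genes tested in that fit, 2020 were higher and 1873 lower. In WT, Parp14, Dtx3l and Irf1 had differences of 0.23 ± 0.10, 0.01 ± 0.08 and 0.11 ± 0.08. None of the 3 passed a test of whether the difference changed with genotype, given below.

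Averaged over all 44 members, the log2 level was 8.84 ± 0.03 in Treg WT (SD, n = 4), 8.85 ± 0.08 in Treg KO (n = 4), 8.66 ± 0.08 in Tconv WT (n = 3) and 8.66 ± 0.14 in Tconv KO (n = 4). The 8 GBP and IRG genes stood at 10.65 ± 0.20 in Treg WT, 10.57 ± 0.16 in Treg KO, 9.84 ± 0.10 in Tconv of WT and 9.70 ± 0.16 in Tconv of KO animals. The lowest Treg library of this group, at 10.38, lay above the highest Tconv library, at 9.94. For the 10 RNA-directed effectors the means were 7.71 ± 0.10 in Treg WT versus 7.91 ± 0.13 in Tconv WT, and their libraries overlapped. Between Treg WT and Tconv WT the mean differed by 0.81 for the GTPases, and by -0.20 for the RNA-directed effectors to 0.18 for the other antiviral effectors over the remaining 6 functional groups.

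**Figure D3:**
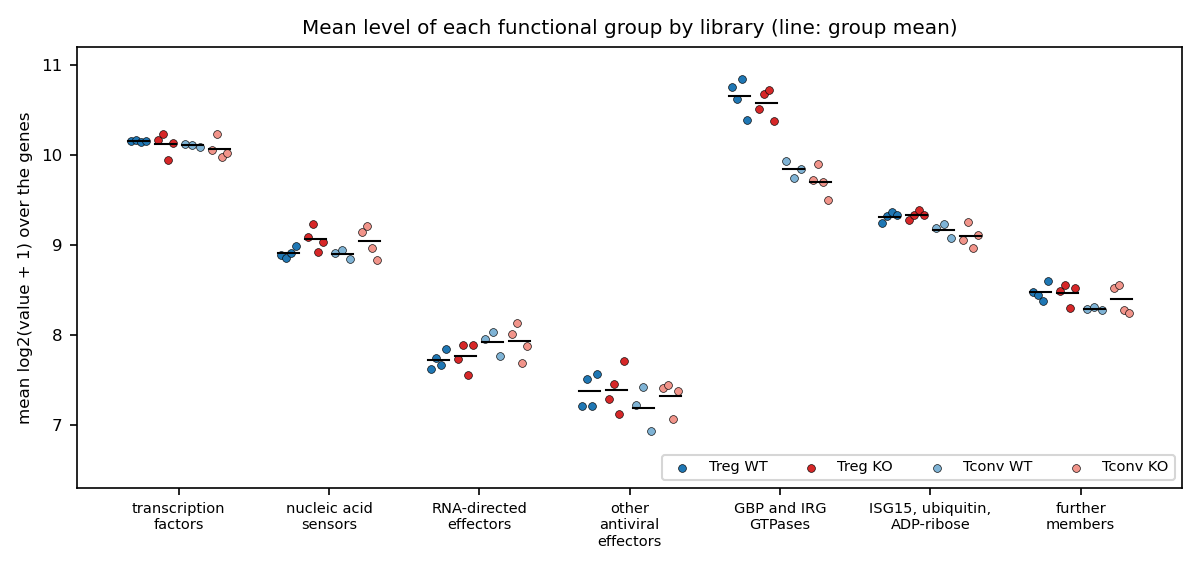
Mean log2(value + 1) over the genes of each functional group, 1 point per library, with a line at each group's mean. The GBP and IRG genes stand apart between Treg (10.38 to 10.85) and Tconv (9.49 to 9.94), and the KO and WT libraries of 1 cell type overlap in this group.

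The next comparison asked whether these transcripts differ between Treg of KO and of WT animals. Few did, and by small amounts: Ddx58, Ifih1, Herc6 and Dtx3l rose and Ifi47 and Ifi35 fell, with ratios of means of at most 1.34-fold. The other 38 members did not pass, among them Isg15, the Ifit, OAS and OASL genes, Mx1, Mx2, the transcription factors Irf1, Irf7 and Irf9, and the GTPases other than Ifi47. In all 6 of 44 passed (13.6%), beside 21.5% of all genes tested, with 4 higher (9.09%, beside 10.4%) and 2 lower (4.55%, beside 11.1%), so neither share exceeded that of all genes. The median log2 fold change of the members was -0.01, and 22 of 44 were above 0.

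**Figure D4:**
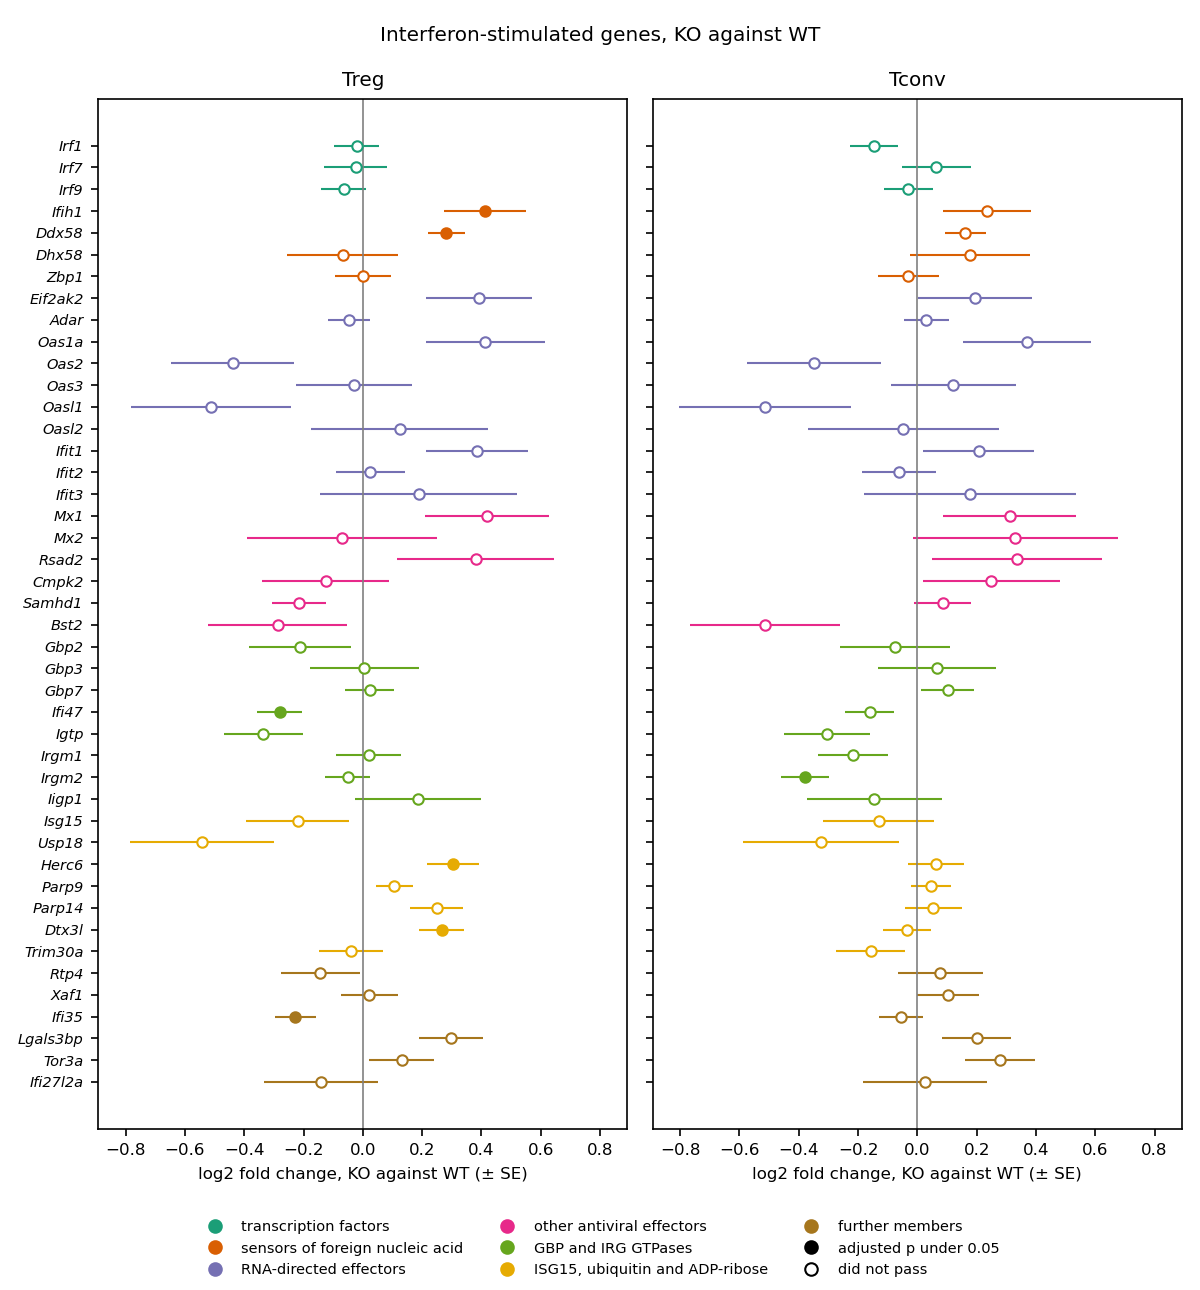
Log2 fold change ± SE of each of the 44 members in KO against WT, in Treg (left) and Tconv (right), ordered and coloured by functional group; filled points passed at an adjusted p under 0.05. In Treg 4 members are filled to the right of 0 and 2 to the left, and in Tconv Irgm2 alone is filled.

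Ddx58 read 846, 840.1, 929 and 898 in Treg WT versus 1130.1, 1089, 1038 and 1012 in Treg KO. The groups did not overlap, and the mean was 1.22-fold higher in KO (log2 fold change 0.28 ± 0.06, adjusted p = 0.0071). Ifih1 read 299, 328, 318 and 369 in Treg WT versus 463, 450.0, 487 and 357 in Treg KO. Treg KO replicate 4 fell inside the WT range, and the rise was 0.41 ± 0.14 (adjusted p = 0.045). The RNA sensor genes that passed were therefore RIG-I and MDA5, while the third of the family, Dhx58, read 216, 187, 183 and 219.9 in Treg WT versus 194, 256, 116 and 231 in Treg KO (-0.07 ± 0.19, adjusted p = 0.82).

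Herc6, which encodes the mouse ligase that attaches ISG15, read 365, 402, 411 and 392 in Treg WT versus 503, 392, 554 and 503 in Treg KO. Treg KO replicate 2 lay at the level of WT, and the rise was 0.30 ± 0.09 (adjusted p = 0.024). Dtx3l read 1389.8, 1424, 1465 and 1288 and 1648, 1668, 1790.4 and 1589, without overlap, and rose by 0.27 ± 0.08 (adjusted p = 0.022). Its neighbour Parp9 averaged 684 ± 25.9 and 736 ± 24.7 (0.11 ± 0.06, adjusted p = 0.24), and Parp14 averaged 2434 ± 109 and 2898 ± 225 (0.25 ± 0.09, adjusted p = 0.057). Neither of these passed.

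Ifi47 read 2106, 1884, 1837 and 1751 in Treg WT versus 1504, 1568, 1713 and 1448 in Treg KO. The groups did not overlap, and the log2 fold change was -0.28 ± 0.08 (adjusted p = 0.019). Ifi35, whose product binds the interferon-induced protein Nmi, read 418, 376, 384 and 376 and 329, 330.0, 338 and 328. The 4 KO libraries were tightly grouped below all WT libraries (-0.23 ± 0.07, adjusted p = 0.03). Ifi47 overlaps Olfr56 on the same strand in the annotation.

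**Figure D5:**
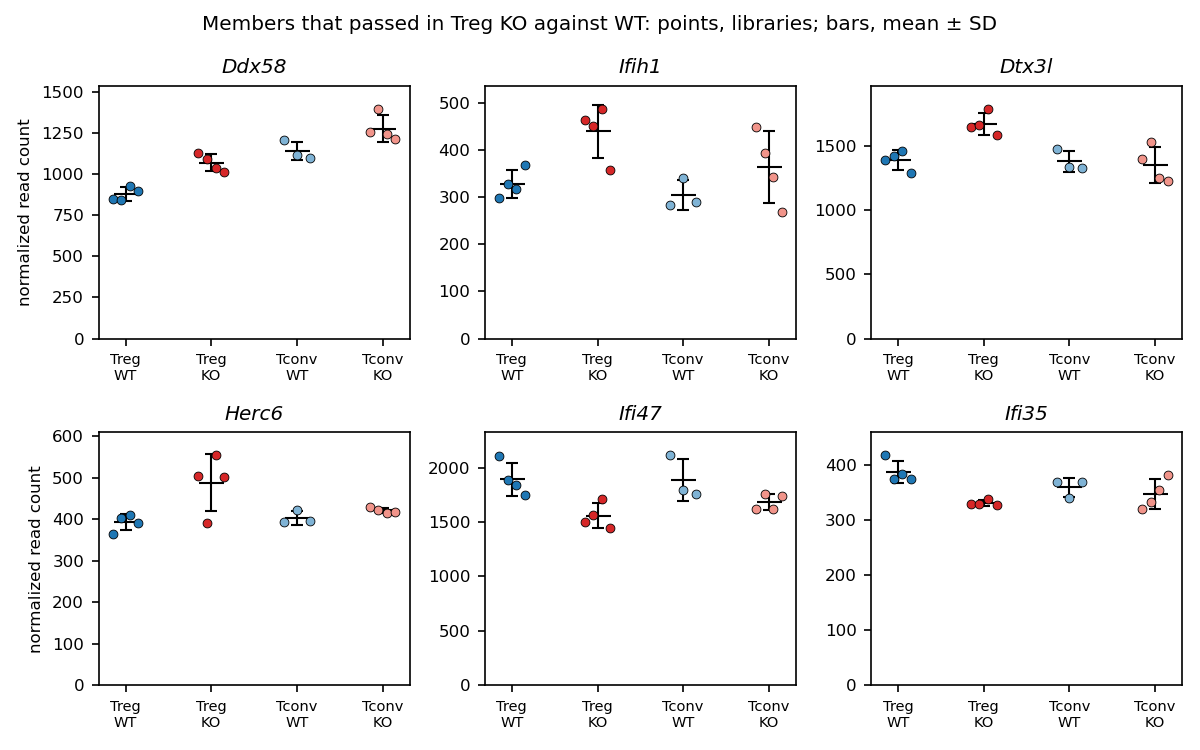
Normalized read counts (linear axes from 0) in every library of the 6 members that passed in Treg KO against WT, with the group mean ± SD. Ddx58, Dtx3l, Ifi47 and Ifi35 do not overlap between Treg WT and Treg KO, while 1 Treg KO library of Ifih1 and 1 of Herc6 lies within or at the WT values.

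These small differences depended on the processing. Removing the trend of values on GC content in each library ended the calls of Ifih1 (adjusted p = 0.34), Ddx58 (0.19), Herc6 (0.36), Dtx3l (0.32) and Ifi35 (0.39); the transcripts of the 4 that rose have GC contents of 42.8, 46.6, 39.4 and 45.9%, beside a median of 49.5% over all genes and 48.2% over the members, Ifi35 has 54.1%, and Ifi47, which fell and kept its call in that fit, has 45.7%. In that fit Lgals3bp, which encodes a secreted glycoprotein, was higher (log2 fold change 0.50, adjusted p = 0.00082) and Samhd1 lower (-0.26, 0.044). Thinned to equal depth, Dtx3l and Ifi47 kept their calls, and Ifih1 (0.13), Ddx58 (0.051), Herc6 (0.079) and Ifi35 (0.058) did not. Single libraries mattered too. Ifih1 lost its call on leaving out any library but Treg KO replicate 4, Tconv KO replicate 1 or Tconv KO replicate 4, with an adjusted p of up to 0.12, while Ddx58 kept its call in all 15 cases. Herc6 lost it without replicate 1 (0.078) or 4 (0.055) of Treg WT, or without replicate 1 (0.051) or 3 (0.064) of Treg KO. Dtx3l lost it without replicate 1 (0.055) or 4 (0.07) of Treg WT, or without replicate 3 (0.053) of Treg KO, Ifi47 without Treg WT replicate 1 (0.071), and Ifi35 without replicate 1 (0.1) or 3 (0.055) of Treg WT, or without replicate 1 (0.05) or 4 (0.05) of Treg KO. The higher members numbered 1 on leaving out replicate 1 or 4 of Treg WT and 2 on leaving out replicate 1 or 3 of Treg KO. The lower numbered 0 when replicate 1 of Treg WT was left out and 1 when its replicate 3, or replicate 1 of Treg KO, was.

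Several members had larger fitted differences that did not pass. Usp18 read 275, 268, 275 and 346 in Treg WT versus 132, 219.6, 209 and 255 in Treg KO, with all KO libraries below all WT libraries (-0.54 ± 0.24, adjusted p = 0.12). Oasl1 averaged 45.1 ± 3.25 and 33.0 ± 11.1 (-0.51 ± 0.27, adjusted p = 0.18). In the other direction Oas1a averaged 300.2 ± 30.8 and 404 ± 75.3 (0.41 ± 0.20, adjusted p = 0.15), Mx1 78.3 ± 17.1 and 104 ± 13.7 (0.42 ± 0.21, adjusted p = 0.16), and Ifit1 161 ± 20.5 and 212 ± 45.2 (0.39 ± 0.17, adjusted p = 0.12). Isg15 averaged 119.9 ± 9.98 and 103 ± 12.9 (-0.22 ± 0.17, adjusted p = 0.38). Fitted differences thus stood on both sides of 0, and within the 10 RNA-directed effectors 6 were above it and 4 below. Groups without overlap between KO and WT were found for 6 members, beside 26.2% of all genes tested.

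Tconv of KO and WT animals were compared in the same way. Irgm2 was the single member that passed, 1 of 44 (2.27%), beside 0.681% of all genes, and none was higher, beside 0.292%. Irgm2 read 1009.6, 888 and 982 in Tconv WT versus 668, 749.8, 741 and 796 in Tconv KO. The groups did not overlap, and the log2 fold change was -0.38 ± 0.08 (adjusted p = 0.047), against -0.05 ± 0.07 in Treg, where it read 1479.5, 1435, 1524 and 1250.0 in WT and 1329, 1356, 1467 and 1327 in KO. The Tconv call was lost on leaving out any library but Treg WT replicate 4, Treg KO replicate 3 or Tconv KO replicate 4, with an adjusted p of up to 0.26, and with no filter (0.064), TMM factors (0.051), a fit of the Tconv groups alone (0.1) or equal depth (0.085). Tconv KO and WT did not overlap for 4 members, beside 16.3% of all genes. For the other GTPases in Tconv, the fold changes ran from -0.30 ± 0.14 for Igtp to 0.10 ± 0.09 for Gbp7. Bst2 had 324 ± 37.7 in Tconv WT versus 231 ± 52.9 in Tconv KO (-0.51 ± 0.25, adjusted p = 0.43), and Ddx58 had 1139 ± 57.1 and 1276 ± 81.3 (0.16 ± 0.07, adjusted p = 0.36).

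Whether the genotype difference itself differed between Treg and Tconv was tested as an interaction. None of the 44 members passed in limma, beside 0.150% of all genes, and edgeR and DESeq2 called 0 members as well. At an unadjusted p under 0.05 there were 3 of 44, beside 963 of all 11314 genes tested. These 3 were Irgm2 with an interaction of 0.33 ± 0.11 (adjusted p = 0.4), Dtx3l with 0.30 ± 0.11 (0.45) and Samhd1 with -0.30 ± 0.13 (0.57). For Parp14 it was 0.20 ± 0.13 (0.71) and for Irf1 0.13 ± 0.11 (0.79). The genotype differences seen in 1 cell type and not in the other were therefore not shown to differ between them.

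Within groups, members moved together to unequal degrees. Over the 15 libraries, the median correlation between the deviations of 2 members from their group means was 0.146, against -0.0013 for all pairs of genes tested and 0.610 for pairs of GTPases. The highest pairs were Oas3 with Ifi27l2a (r = 0.93), Irf7 with Ifit3 (0.89) and Mx1 with Rsad2 (0.88); these points share the libraries, their depth and their scaling. Ifit3 in Treg KO read 131, 149, 60.3 and 235, and Irf7, which encodes the factor that amplifies interferon production, read 502, 534, 399 and 559, with replicate 3 lowest in both. The mean level over all members was highest in the KO libraries with the label numbers 576 (Treg, 8.94) and 577 (Tconv, 8.83) and lowest in those numbered 578 (Treg, 8.75) and 579 (Tconv, 8.52). Libraries 576 and 577 held 4.71 and 5.03 M reads, and 578 and 579 held 2.64 and 2.95. Library 581 (Tconv KO), with 10.3 M reads, had a mean level of 8.58. Any part of depth in these levels was not tested. The labels do not say whether neighbouring numbers share an animal. The median coefficient of variation of the members was 9.13% in Treg WT and 14.1% in Treg KO, beside 8.24% and 16.2% over all genes tested.

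The rest of the pathway was described with a list of 88 other genes, of which 82 were in the table and 75 were tested. In Treg against Tconv of WT animals 22 were higher and 7 lower (38.7% passed), and in KO animals 21 were higher and 9 lower (40.0%), beside the 18.1% and 31.4% of all genes given above. Of the 10 receptor, kinase and STAT genes tested, 6 were higher in Treg in each genotype, and 0 were lower in WT and 1 in KO, the kinase gene Jak1 (-0.23 ± 0.08, adjusted p = 0.048), whose call was lost in 15 of 26 alternatives (adjusted p of up to 0.17). Ifngr1 averaged 1779.9 ± 123 in Treg WT versus 856 ± 51.6 in Tconv WT (1.05 ± 0.25, adjusted p = 0.0072). Ifnar1 averaged 1704 ± 129 and 1207 ± 19.1 (0.49 ± 0.08, adjusted p = 0.0004), and Ifnar2 639 ± 47.9 and 452 ± 29.0 (0.50 ± 0.11, adjusted p = 0.0042). Stat2 averaged 930.2 ± 15.2 and 736 ± 14.7 (0.34 ± 0.07, adjusted p = 0.0046). Both receptor chains for type I interferon, the binding chain for interferon gamma and Stat2 were thus higher in Treg. Ifngr2 did not pass (-0.01 ± 0.26, adjusted p = 0.98).

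Among the sensing genes Tlr7, an endosomal RNA sensor, read 208, 239, 240.2 and 159.6 in Treg WT versus 29.8, 33.2 and 38.5 in Tconv WT (2.60 ± 0.21, adjusted p = 4.2e-07). Irf5, a factor downstream of it, read 134, 181, 136 and 141 and 22.6, 30.6 and 28.9 (2.40 ± 0.34, adjusted p = 0.00013), and Irf8 averaged 224 ± 31.7 and 72.7 ± 13.02 (1.61 ± 0.16, adjusted p = 3e-06). All 3 are also expressed by B and myeloid cells; B cell markers moved with the cell type as given above, and their part was not tested. Further GBP genes were higher in Treg WT as well: Gbp5 read 922, 900.1, 1041 and 758 against 329, 269.8 and 362 (1.497 ± 0.156, adjusted p = 6.2e-06), and Gbp6 averaged 2171 ± 138 against 1175 ± 56.1 (0.88 ± 0.09, adjusted p = 3e-06). In both genes no Treg library overlapped Tconv. The inducible gene Ly6a, which encodes the surface antigen Sca-1, was lower in Treg, at 867 ± 37.3 against 1703 ± 132 (-0.97 ± 0.15, adjusted p = 0.00026). Ifng itself read 34.9, 36.6, 27.3 and 22.2 in Treg WT versus 76.8, 62.2 and 67.3 in Tconv WT and did not pass there (adjusted p = 0.073), and it passed as lower in Treg in the KO animals (-1.24 ± 0.40, adjusted p = 0.028), where it read 36.3, 52.2, 28.0 and 25.4 in Treg and 196, 103, 71.0 and 31.1 in Tconv. That call was lost without Treg KO replicate 3 (0.062) or 4 (0.068), without Tconv KO replicate 1 (0.072) or 2 (0.074), at equal depth (0.058) and in a fit of the KO groups alone (0.11). Of the CD8 T and NK cell markers, Klrb1c was higher in Tconv of both genotypes as given above, and Gzma in KO alone. Cd8b1 did not pass, and Cd8a, Ncr1 and Klra8 were too low to be tested. Any part of such cells in the lower levels of Ly6a and Ifng in Treg was not tested.

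Between Treg KO and WT, 4 of the 75 pathway genes rose and 6 fell (13.3% passed, beside 21.5% of all genes). Socs1, an inhibitor of JAK kinases that interferon induces, read 329, 403, 319 and 319 in Treg WT versus 245, 221, 81.9 and 142 in Treg KO. Every KO library lay below every WT library, and the mean was 1.99-fold higher in WT (log2 fold change of KO against WT -1.10 ± 0.27, adjusted p = 0.012). Socs3, an inhibitor of STAT3 signalling, averaged 1643 ± 74.1 and 1081 ± 261 (-0.63 ± 0.16, adjusted p = 0.014), a call lost with the GC trend removed (0.15). Nlrc5, the activator of MHC class I genes, averaged 5927 ± 123 and 4573 ± 551 (-0.38 ± 0.09, adjusted p = 0.012; 0.056 with quantile normalization), and Psmb9, an immunoproteasome subunit, Parp10 and Il10rb also fell. These last 3 calls were lost (adjusted p = 0.052 to 0.091) on leaving out replicate 1 or 4 of Treg WT or replicate 3 of Treg KO, and some of them on leaving out another Treg library. Parp10 also lost its call with the GC trend removed (0.28) and in a fit of the Treg groups alone (0.054), Psmb9 in the latter (0.067), and Il10rb at equal depth (0.11). Slfn8 rose from 1606 ± 23.9 to 2203 ± 255 (0.45 ± 0.07, adjusted p = 0.00088) and Slfn2, a gene of T cell quiescence, from 2401 ± 233 to 2984 ± 250.5 (0.31 ± 0.08, adjusted p = 0.011). Jak2 (0.52 ± 0.13) and Mb21d1, which encodes the DNA sensor cGAS (0.61 ± 0.16), also rose and lost their calls with the GC trend removed (0.064 and 0.082). Socs1, Slfn2 and Slfn8 kept their calls under all 26 alternatives run. In limma 0 of the 75 passed in Tconv, beside 0.681% of all genes. An unadjusted p under 0.05 was reached by 8 of the 75, beside 1358 of all 11314 genes tested. With edgeR 0 were called, and with DESeq2 1 was called lower. In the interaction 0 passed in limma, edgeR and DESeq2, beside 0.150% of all genes in limma. Here 4 of the 75 had an unadjusted p under 0.05 in limma, beside 963 of all 11314 genes tested.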

How the data were processed

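Libraries were prepared with an Illumina TruSeq kit from total RNA of sorted cells, per the labels' protocols. TopHat and mm10 are named in the submitters' processing notes. The sources used here state no version, counting tool, strand setting or annotation. Deposited values are a normalized signal that the authors made from gene counts with 1 scaling factor per library: in every column 100% of values are whole multiples of 1 step (tolerance 0.001).

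Values were analysed as log2(value + 1) in R 4.3.3 with limma 3.58.1 (trend on mean level, 4 group means, all 15 libraries, two-sided). The 11314 genes that reached a value of 10 in 3 or more libraries were tested, and adjusted p-values are Benjamini-Hochberg values over these genes with a threshold of 0.05. The fold change on this scale understates that of low genes. Nothing says that libraries of a group came from separate animals, so p-values measure the spread between samples. Alternatives were edgeR 4.0.16 (quasi-likelihood) and DESeq2 1.42.0 on recovered whole reads, a pseudocount of 8 or of 0.1, dropping the filter or asking for a mean of 50 or more, TMM factors, quantile normalization, fits of the groups compared, removal of the GC trend, each library left out, and, chosen after seeing the data, reads thinned to 2635841 per library. Code was tested on simulated data. Positions, lengths and GC content came from GENCODE vM21 (GRCm38), and promoters from RefSeq (GRCm38.p6); figures were drawn with matplotlib 3.10.9. Replicates were numbered in record order. Every member may be named; other pathway genes are named if they passed, up to 6 per list and comparison by p, with the interferon receptors, Stat2 and Ifng in any case; some genes of the lists are not reported here. The members and lists were chosen with earlier results of these data known.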

Additional observations from a re-analysis of the deposited data

Results flagged for a closer look

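In 6 of 132 groups of 4 libraries, 1 library of a member lay so far from the other 3 that the gap exceeded Dixon's critical value at 95%; chance flags about 1 group in 20. In Treg KO replicate 3, the transcript of Ifi27l2a read 499.9 against 887 to 939 in the others, and that of Isg15 read 84.0 against 108 to 112. In Treg KO replicate 1, Samhd1 read 6081 against 7493 to 7783. In Treg WT replicate 4, Usp18 read 346 against 268 to 275 and Oas3 read 339.5 against 265 to 269. In Tconv KO replicate 2, Irf9 read 1162 against 926 to 964.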

How the results depend on the processing

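The 33 member calls were recomputed under 11 alternatives and with each of 15 libraries left out, 858 values in all: 782 kept their direction and their side of the threshold, 76 lost the call and 0 reversed, and 20 calls were never lost. The cause of a lost call was not tested. No paired analysis was made, since the labels give every library a number of its own and do not say that neighbouring numbers share an animal. The interaction could not be fitted on the groups compared alone, since it uses all 4 groups. In Treg KO against WT, the higher members numbered 1 with the GC trend removed and 1 at equal depth, and the lower numbered 1 in a fit of the groups compared and 1 at equal depth. With a library left out, the higher ranged from 1 to 6 and the lower from 0 to 3. In Tconv KO against WT, the lower members numbered 0 with no filter, with TMM factors, in a fit of the groups compared and at equal depth, and 0 to 1 with a library left out. In Treg against Tconv of WT animals, 15 members were higher and 7 lower in a fit of the groups compared, beside 2064 and 1926 of all 11314 genes.

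Over all genes, the number that passed in Treg KO against WT was 2431, and 1589 with the GC trend removed; with a library left out it ranged from 1394 (without Treg WT replicate 1) to 2741. In Tconv KO against WT it was 77, and 236 with DESeq2 and 32 in a fit of the groups compared, with a range of 22 (without Tconv WT replicate 1) to 249 (without Treg KO replicate 3). For the interaction it was 17, and 88 with DESeq2, 33 with the GC trend removed and 9 at equal depth, with a range of 3 (without Tconv WT replicate 2) to 23. In Treg against Tconv it was 2046 in WT, and 3990 in a fit of the groups compared, and 3558 in KO, and 2042 in such a fit. At equal depth 7 of the member calls were lost: those of Ifih1, Ddx58, Herc6 and Ifi35 in Treg KO against WT, of Irgm2 in Tconv KO against WT, of Oas1a in Treg against Tconv of WT animals and of Oas3 in that of KO animals.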

Other observations

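Ifi204, an interferon-inducible gene of the DNA-sensing p200 family from the list of other pathway genes, was singled out after its values were seen. It read 116, 124, 0 and 4.01 in Treg KO and 191, 171, 11.8 and 12.2 in Tconv KO, against 0, 0.690, 0 and 0.887 in Treg WT and 10.8, 12.1 and 5.50 in Tconv WT. In each KO group replicates 1 and 2 were far above replicates 3 and 4, and the genotype difference did not pass in Treg (log2 fold change 3.62 ± 1.32, limma adjusted p = 0.061) or in Tconv (2.28 ± 1.42, adjusted p = 0.54). The 4 high libraries carry the label numbers 574 to 577 and the other 4 KO libraries the numbers 578 to 581.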
